A study of Mus musculus with 28 samples.

Results

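The nuclear genes of the mitochondrial respiratory chain and ATP synthase were followed in the heart ventricles of mice with and without kidney disease and with and without a gavaged gut bacterium. They were the rows of the count table whose gene name begins with Nduf, Uqcr, Atp5 or Cox followed by a digit from 4 to 8, or is Sdha, Sdhb, Sdhc, Sdhd or Cyc1. Of 45513 gene rows, 98 had such a name. The 6 rows with a pseudogene name ("-ps") were left out, as was Cox7b2, with a median of 2 counts per library, because rows under 10 counts in more than 50% of the libraries were not kept. The remaining 91 genes comprised 45 named for complex I, 4 for complex II, 9 for complex III, 16 for complex IV and 17 for complex V. Cox6b2 lay nearest to the count limit among the genes kept, with under 10 counts in 9 of the 28 libraries, and Ndufaf2 and Ndufaf5 were under it in 1 library each. All 91 passed the filter on low counts that came before the tests.

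The libraries came from ventricular myocardium of adult male C57BL/6 mice, frozen after the mice had been perfused with buffer, and each library was 1 mouse. Chronic kidney disease (CKD) was produced by 5/6 nephrectomy, the staged removal of most of the renal tissue, begun at 6 weeks of age, and control mice had a sham operation. On day 7 a mouse received by mouth either 1 dose of Oxalobacter formigenes (Oxf), an oxalate-degrading bacterium of the gut, or only its culture medium (vehicle). Every mouse, the sham-vehicle mice included, ate a diet with 1% hydroxyproline, a precursor of oxalate, and 0.5% calcium, so no group had an ordinary diet. There were 10 libraries of sham-vehicle, 5 of sham-Oxf, 6 of CKD-vehicle and 7 of CKD-Oxf. The design gives 10 mice per group, and further mice of CKD-vehicle and of both Oxf groups were not analysed here. The model thus combines surgery with a diet that raises oxalate, and the files hold no measure of kidney function or of colonization.

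The respiratory chain passes electrons from NADH (complex I) and succinate (complex II) through complexes III and IV to oxygen, and the proton gradient that results drives ATP synthase (complex V). Most subunits are encoded in the nucleus and made in the cytosol, a small core is encoded in mitochondrial DNA, and assembly factors put the parts together. Heart muscle depends on this pathway for nearly all of its ATP, and complex IV contains subunits with separate forms for heart or skeletal muscle and for other tissues.

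Libraries held between 19.8 and 65.4 M counts (M, mega), with means of 40.5 ± 8.79 M for sham-vehicle (SD, n = 10), 31.2 ± 6.94 M for sham-Oxf (n = 5), 48.0 ± 10.5 M for CKD-vehicle (n = 6) and 42.1 ± 8.79 M for CKD-Oxf (n = 7). The 91 genes together accounted for 0.384% to 1.13% of the counts. Sham-Oxf replicate 1 stood apart, with the lowest total (19.8 M) and 15879 genes with a count, and the main values that moved without it are given both ways. The tissue label was checked for heart muscle with 9 cardiomyocyte markers (Myh6, Myl2, Tnnt2 and others). Their summed level was 17111 to 45079 CPM (counts scaled to the effective library size) over the libraries. Myh6 alone had a mean of 16930 CPM in sham-vehicle, and this sum does not separate ventricle from atrium. The 3 atrial markers summed to 15.2 to 1337 CPM over the libraries. Abundance of 7SL RNA, a cytosolic RNA of the signal recognition particle (rows Rn7s1 and Rn7s2, near-identical copies), varied widely and was 1.83% to 21.0% of the counts. A clock score, the mean log2 level of 9 genes around Dbp and Per1 minus that of 4 genes around Arntl, ranged from -2.64 to 2.33 relative to its sham-vehicle mean.

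In sham-vehicle hearts the level per kilobase of merged exon was highest for the ATP synthase catalytic core and for a few small subunits. Merged exon takes all annotated exons of a gene together and can exceed the length of its transcripts. It was 4237 bp for Atp5b and 641 bp for Uqcr11, so the order of genes depends on the annotation. Atp5a1, the α subunit of ATP synthase, had 249.6 CPM per kilobase and Atp5b, the catalytic β subunit, 209.5. Uqcr11, a small subunit of complex III, had 264 CPM per kilobase, the highest of all 91 genes, and Cox6a2, the muscle form of a complex IV subunit, had 188. The highest member of complex II was Sdha, its flavoprotein, with 63.1. Assembly factors of complex I (Ndufaf genes) were far lower, with 0.652 CPM per kilobase for Ndufaf2 and 6.92 for Ndufaf1. Lowest was Cox6b2, the testis form of a complex IV subunit, at 0.310 CPM per kilobase against 103 for its general counterpart Cox6b1.

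The 5 complexes moved together from library to library. The mean over the 91 genes of the log2 CPM relative to the sham-vehicle mean was highest in CKD-vehicle (0.42 ± 0.53, SD, n = 6), followed by sham-vehicle (0 ± 0.53, n = 10), CKD-Oxf (-0.18 ± 0.48, n = 7) and sham-Oxf (-0.45 ± 0.40, n = 5). Single libraries ran from -1.03 (sham-Oxf replicate 2) to 1.12 (CKD-vehicle replicate 2), and every pair of groups overlapped. Sham-vehicle itself spread into 4 libraries at 0.40 to 0.91 (replicates 3, 4, 5 and 7) and 6 at -0.59 to -0.32. Within a library the means of the 5 complexes lay close to each other: their range had a median of 0.23 and was at most 0.49, against a range of 2.15 for the mean over all genes of the set across libraries. In bulk tissue, fewer cells of a type and less RNA per cell cannot be told apart, so these levels are per unit of sequenced RNA.

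**Figure D1:**
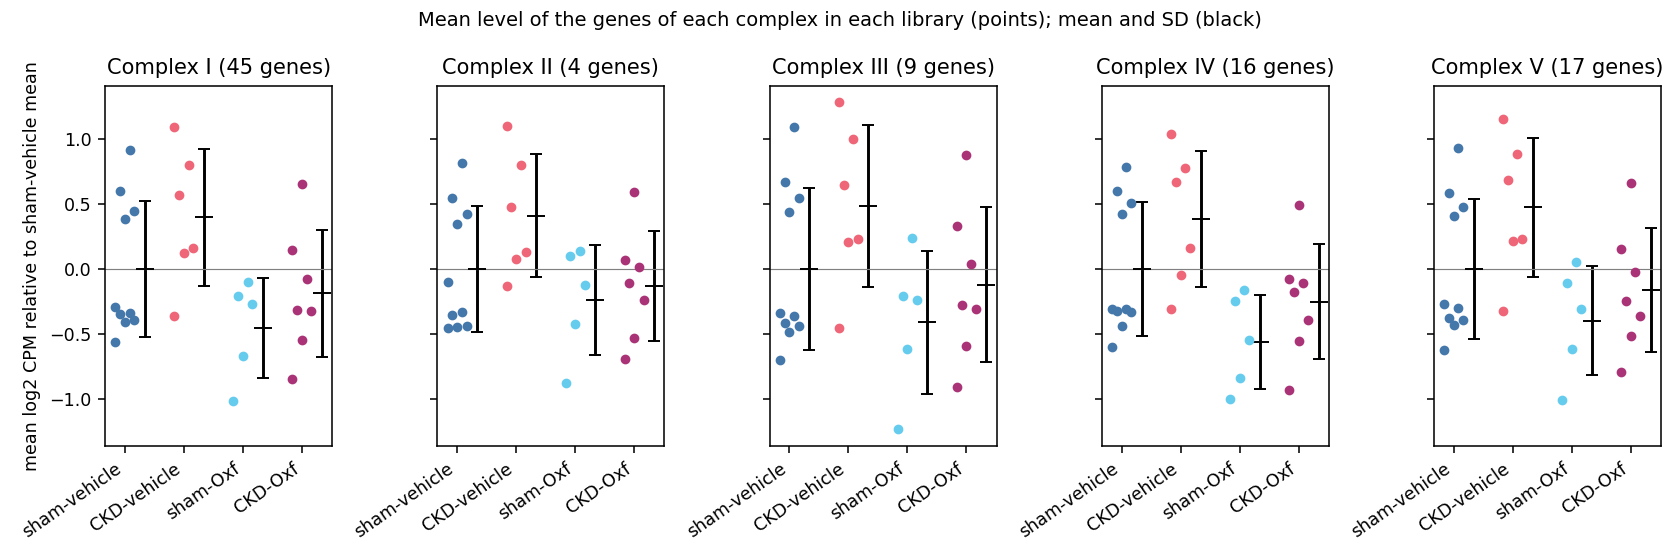
Mean log2 CPM of the genes of each complex relative to the sham-vehicle mean of each gene (vertical axis), 1 point per library, with the group mean and SD in black. In all 5 panels CKD-vehicle has the highest mean and sham-Oxf the lowest, and the points of all 4 groups overlap.

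Group means of single complexes had the same order. For complex I the mean of CKD-vehicle was 0.40 ± 0.53, that of sham-Oxf -0.45 ± 0.38 and that of CKD-Oxf -0.19 ± 0.49, relative to sham-vehicle (0 ± 0.53). Complex II, the smallest set, had the narrowest separation, with 0.41 ± 0.47, -0.24 ± 0.42 and -0.13 ± 0.42. Complex III stood at 0.49 ± 0.62, -0.41 ± 0.55 and -0.12 ± 0.60, complex IV at 0.38 ± 0.52, -0.56 ± 0.36 and -0.25 ± 0.44, and complex V at 0.47 ± 0.54, -0.40 ± 0.42 and -0.16 ± 0.48. These are descriptions over chosen genes and carry no test.

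Kidney disease without the bacterium was the comparison of CKD-vehicle with sham-vehicle, and it left the 91 genes higher on average without any passing the test. Fitted log2 differences were positive for 88 of 91, with a median of 0.42 (all tested genes: -0.03). The medians were 0.38 for complex I, 0.35 for II, 0.47 for III, 0.41 for IV and 0.50 for V. None of the 91 passed the threshold (edgeR quasi-likelihood F test with Benjamini-Hochberg adjustment over 24273 genes, adjusted p under 0.05), where 0.00824% of all genes did. At an unadjusted p under 0.05, 5 members were higher, 5.49% against 2.09% of all genes. The smallest p belonged to Atp5s, which despite its name encodes an assembly-related protein rather than a core ATP synthase subunit, at 0.42 ± 0.15 (SE, p = 0.0115, edgeR adjusted p = 0.955). The DESeq2 Wald test and limma voom also called 0 members, here and in the surgery comparisons and the interaction that follow. Without CKD-vehicle replicate 2 the median over the 91 genes was 0.24, and those of complexes I to V were 0.18, 0.19, 0.25, 0.25 and 0.29. The median over the 91 genes was 0.08 with the clock score as a covariate (all genes: 0.004) and 0.25 with the log2 7SL share as a covariate (all genes: -0.01).

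Other gene lists differed along with the 91 genes in this comparison, none with a gene called. All 9 cardiomyocyte markers were positive, 2 of them at an unadjusted p under 0.05, with a median of 0.48, and the summed level was 17111 to 32733 CPM for sham-vehicle against 29978 to 45079 for CKD-vehicle. Of the clock genes, 7 of the 9 around Dbp were lower at an unadjusted p under 0.05 (2.37% of all genes) and all 4 around Arntl were higher, with medians of -0.81 and 0.76. All 4 liver markers were lower at an unadjusted p under 0.05, with a median of -2.17. The 3 brown fat and 4 fat markers were all negative, none of them at an unadjusted p under 0.05 (medians -1.67 and -1.49). The fat markers summed to 2.34 to 226 CPM for sham-vehicle against 1.24 to 105 for CKD-vehicle. The mean 7SL share was 9.78 ± 5.24% for sham-vehicle (SD, n = 10) and 13.6 ± 6.80% for CKD-vehicle (n = 6). The part of these measures in the higher levels with CKD was not tested.

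Surgery among the mice that had received the bacterium (CKD-Oxf against sham-Oxf) gave a smaller median of 0.25, with 84 of 91 positive. No member passed the adjusted threshold in edgeR, as for all genes (0% called), and 0 members were higher or lower at an unadjusted p under 0.05, where 3% of all genes were higher and 5.22% lower. The smallest p was that of the complex I assembly factor Ndufaf2, at 0.87 ± 0.43 (p = 0.0543), a gene listed at 0 counts in sham-Oxf replicate 1 and at 0.57 without that library. The median over the 91 genes was 0.39 without sham-Oxf replicate 1, 0.13 without sham-Oxf replicate 2 and 0.05 without CKD-Oxf replicate 4, where that of complex II was -0.02. With the log2 7SL share as a covariate the median turned to -0.14 (all genes: 0.09), and with the clock score it was 0.15 (all genes: 0.07). With surgery averaged over both gavages, the median was 0.34 and 20 members were higher at an unadjusted p under 0.05 (22% against 5.17% of all genes), with 0 past the adjusted threshold (0% of all genes). Ndufaf4, another complex I assembly factor, had the smallest p there (0.38 ± 0.13, p = 0.00725, edgeR adjusted p = 0.323).

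In mice with kidney disease, those given the bacterium (CKD-Oxf) had lower levels of nearly all these genes than those given vehicle (CKD-vehicle). Differences were negative for 89 of 91 genes, with a median of -0.60 (all genes: 0.03), and the CKD-vehicle libraries enter both this comparison and the one with sham-vehicle. The medians of complexes I to V were -0.55, -0.46, -0.60, -0.65 and -0.66. No member passed the adjusted threshold in edgeR, where 0.033% of all genes did, while 47 were lower at an unadjusted p under 0.05, 51.6% against 6.2% of all genes. Ndufc1, a small accessory subunit in the membrane arm of complex I, had the smallest p (-1.15 ± 0.28, p = 0.000245, edgeR adjusted p = 0.158). The count past the adjusted threshold depended on the tool and on 1 library: it was 3 with DESeq2, 59 with limma voom, and 25 in edgeR without CKD-Oxf replicate 4. That library had the highest mean level of its group (0.65) and a 7SL share of 20.6%. The median was -0.05 with the clock score as a covariate (all genes: -0.03) and -0.33 with the log2 7SL share as a covariate (all genes: -0.02).

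In sham-operated mice the same comparison (sham-Oxf against sham-vehicle) gave negative differences for 88 of 91 genes with a median of -0.41. Complex IV had the lowest median (-0.55), followed by I (-0.42), III (-0.40), V (-0.36) and II (-0.26). Again 0 members passed in edgeR (0% of all genes), as with DESeq2 and voom, and 23 were lower at an unadjusted p under 0.05, 25.3% against 5.98% of all genes. The smallest p was that of Cox6a1, the general form of the complex IV subunit whose muscle form is Cox6a2, at -0.68 ± 0.21 (p = 0.0027, edgeR adjusted p = 0.203). The order of the complexes rested on single libraries. Without sham-Oxf replicate 1 the median over all 91 was -0.58, with -0.63 for both IV and V, -0.59 for III, -0.51 for I and -0.37 for II, and without sham-Oxf replicate 2 V was at -0.22 and II at -0.13. With the log2 7SL share as a covariate the median over the 91 turned to 0.04 (all genes: -0.11). With the clock score it was -0.11, near that of all genes (-0.12). The 2 comparisons of Oxf with vehicle share no library, and the difference between them (the interaction of surgery and gavage) had a median of -0.16 with 0 members past the threshold (0% of all genes). Only Atp5s was lower at an unadjusted p under 0.05 in that interaction, at -0.49 ± 0.24 (p = 0.0459, 1.1% of members against 2.07% of all genes).

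**Figure D2:**
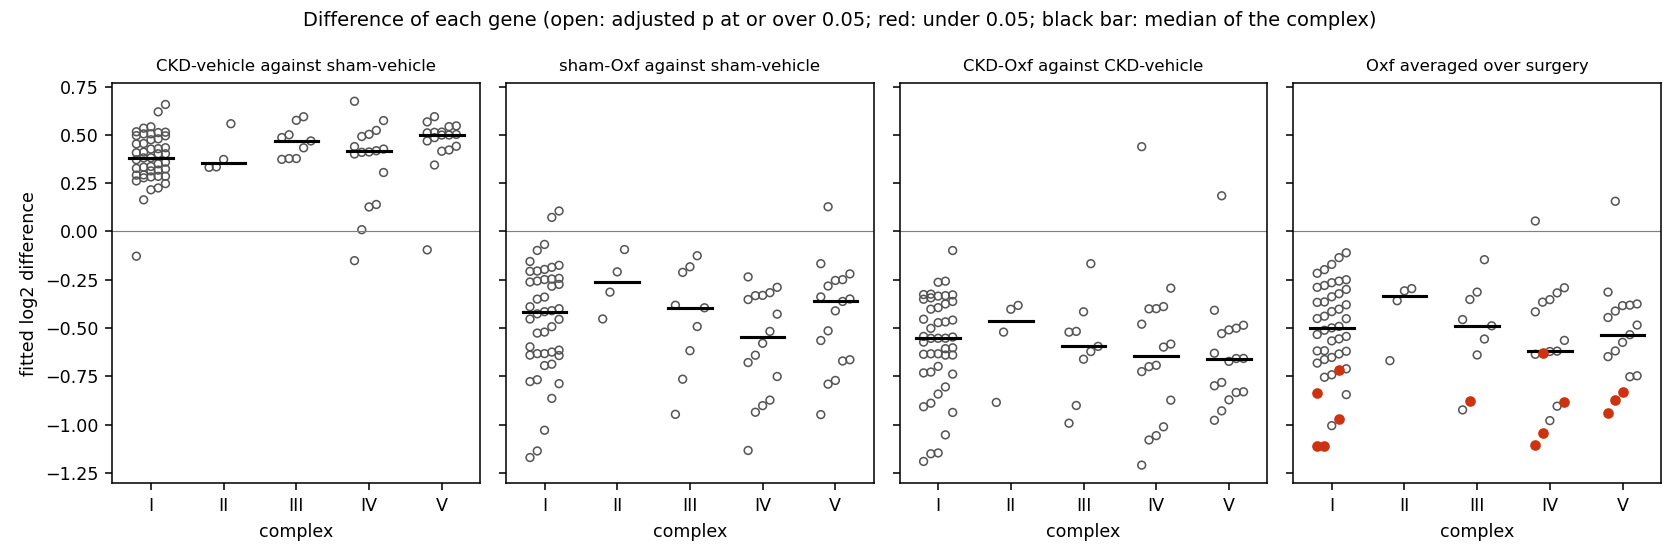
Fitted log2 difference of each of the 91 genes (vertical axis) by complex in 4 comparisons, with the median of each complex as a black bar and genes with an adjusted p under 0.05 in red. Genes lie mostly above 0 for CKD-vehicle against sham-vehicle and mostly below 0 where Oxf is compared with vehicle, and the 13 red genes are all in the comparison averaged over surgery.

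When the gavage comparison was averaged over both kinds of surgery, 13 of the 91 genes fell in the mice given the bacterium and none rose. The 13 were 14.3% of the set, against 2.81% of all tested genes called in either direction and 1.54% called lower. The median of the 91 was -0.51 and 89 were negative, and 61 were lower at an unadjusted p under 0.05 (67% against 11.5% of all genes). By complex as given by the gene name, 5 of 45 genes fell in complex I, 0 of 4 in II, 1 of 9 in III, 4 of 16 in IV and 3 of 17 in V, with medians of -0.50, -0.33, -0.49, -0.62 and -0.53. The 7 assembly factors of complex I, none of which passed, had a median of -0.29 against -0.54 for its 38 other genes. The number of calls depended on single libraries: leaving out 1 library at a time gave 1 to 56 called members, and 23 of 28 libraries moved the count by more than 1.5 times. The count was 56 without CKD-Oxf replicate 4, 39 without CKD-vehicle replicate 5, 22 without sham-vehicle replicate 2 or 9, 21 without sham-Oxf replicate 3 and 20 without sham-vehicle replicate 6. It was 7 without sham-vehicle replicate 3 or 5 or CKD-Oxf replicate 7, 6 without CKD-Oxf replicate 1 and 4 without CKD-vehicle replicate 1. It was 3 without sham-vehicle replicate 4 or 7, CKD-vehicle replicate 4, sham-Oxf replicate 2 or CKD-Oxf replicate 2, 5 or 6, and 2 without CKD-vehicle replicate 3 or CKD-Oxf replicate 3. It was 1 without CKD-vehicle replicate 2 or sham-Oxf replicate 4 or 5. Without sham-Oxf replicate 1, the library that stands apart, 18 were called, 12 of them among the 13. The median lay between -0.60 and -0.43 in all 28 of these fits. Ndufc1 passed in 28 of the 28, Cox6a2 in 25, Cox6a1 in 23, Cox7b in 15, Ndufb4 in 14, Ndufa4 in 11, Cox8b in 10 and the other 6 in 8 to 16.

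Other measures moved with the gavage groups. The clock score was higher in the Oxf groups (1.85 ± 0.67 in sham-Oxf, n = 5, and 1.23 ± 0.65 in CKD-Oxf, n = 7) than in sham-vehicle (SD 1.19 around 0, n = 10) and CKD-vehicle (-1.61 ± 1.02, n = 6). In the same fit 6 of the 9 genes around Dbp rose with Oxf and all 4 around Arntl fell, Arntl itself with a log2 difference of -2.11. All of the CKD-Oxf libraries lay above all of the CKD-vehicle libraries in this score (-0.16 to 1.87 against -2.64 to -0.30), so in mice with CKD the gavage and the clock score cannot be told apart. Mouse numbers ran in blocks: 901 to 910 (sham-vehicle), 913 to 920 (CKD-vehicle), 921 to 929 (sham-Oxf) and 931 to 940 (CKD-Oxf). Gavage and mouse order therefore cannot be told apart. Within sham-vehicle the clock score was lowest in mouse 901 (-1.71) and highest in mouse 909 (2.01). The mean 7SL share was 13.6 ± 6.80% for CKD-vehicle and 8.81 ± 6.26% for CKD-Oxf, and 9.78 ± 5.24% for sham-vehicle and 4.14 ± 3.52% for sham-Oxf. With the clock score as a covariate 0 members were called and the median was -0.09 (59 of 91 negative), and with the log2 7SL share as a covariate 0 were called and it was -0.14 (72 negative). The medians of all tested genes were -0.072 with the clock score and -0.066 with the log2 7SL share. Cardiomyocyte markers also moved: 1 of 9, Tnni3, fell (-0.72 ± 0.19, edgeR adjusted p = 0.0447), 8 of 9 were negative, and their median was -0.46. Their summed level was 17111 to 32733 CPM for sham-vehicle against 19115 to 27858 for sham-Oxf, and 29978 to 45079 for CKD-vehicle against 23223 to 40016 for CKD-Oxf, with none at 0 in any library. Skeletal muscle markers, of which 4 of 5 were tested, were all lower at an unadjusted p under 0.05 with none called, and their median was -3.51. Their summed level was 1.67 to 475 CPM for sham-vehicle against 1.599 to 24.7 for sham-Oxf, and 1.19 to 544 for CKD-vehicle against 1.47 to 2.80 for CKD-Oxf. The group medians of this sum were 2.68 CPM for sham-vehicle, 1.93 for sham-Oxf, 1.68 for CKD-vehicle and 2.59 for CKD-Oxf. The typical library was therefore not lower with Oxf in mice with CKD, and the high sums lay in few libraries. Among these markers Myh2 was at 0 in 5 libraries and Myh4 in 1. Brown fat markers, 0 of 3 called, summed to 2.71 to 38.7 CPM for sham-vehicle against 2.68 to 5.18 for sham-Oxf, and 3.30 to 17.2 for CKD-vehicle against 2.27 to 14.5 for CKD-Oxf, with Ucp1 at 0 in 7 libraries. Of the 4 liver markers, Alb rose, and the list summed to 0.577 to 17.9 CPM for sham-vehicle against 0.955 to 31.8 for sham-Oxf, and 0.396 to 1.80 for CKD-vehicle against 0.228 to 79.0 for CKD-Oxf. No atrial, blood or fibroblast marker was called. The 3 atrial markers were all negative (median -0.78, 1 at an unadjusted p under 0.05) and summed to 66.6 to 1306 CPM for sham-vehicle against 31.8 to 786 for sham-Oxf, and 512 to 1337 for CKD-vehicle against 15.2 to 736 for CKD-Oxf. The 5 blood markers were all positive (median 0.61, 1 at an unadjusted p under 0.05) and summed to 12.7 to 39.6 CPM for sham-vehicle against 5.76 to 108 for sham-Oxf, and 6.18 to 52.4 for CKD-vehicle against 16.5 to 127 for CKD-Oxf. The 4 fibroblast markers were all negative (median -0.18, 1 at an unadjusted p under 0.05). The part of these measures in the lower levels with Oxf was not tested.

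Among complex I genes, Ndufc1 had the smallest p of the whole set in the averaged comparison. Its levels in sham-vehicle ran from 13.0 to 42.6 CPM with a median of 16.7, and in CKD-vehicle from 17.1 to 48.8 with a median of 30.8. In sham-Oxf they were 8.58, 10.1, 18.2, 13.8 and 11.1 CPM (replicates 1 to 5), and in CKD-Oxf they ran from 9.83 to 24.1 with a median of 13.8. All 7 CKD-Oxf libraries and 4 of 5 sham-Oxf libraries lay below the vehicle median of the same surgery, and the ranges overlapped. The gene fell 1.96-fold (log2 difference -0.97 ± 0.20, edgeR adjusted p = 0.0151). Ndufb4 and Ndufa4 had the largest fitted falls of the set (-1.11 ± 0.28, adjusted p = 0.0386, and -1.11 ± 0.29, adjusted p = 0.0425). Ndufb4 is an accessory subunit of the complex I membrane arm, and Ndufa4, named for complex I, is now counted as a subunit of complex IV. Ndufc2 (-0.84 ± 0.21) and Ndufa7 (-0.72 ± 0.19) also fell. Ndufc2 overlaps Gm16053 on the same strand, so its counts are less certain. Ndufc2 and Ndufa7 were named here after their values were seen, as were Uqcrc2, Atp5k, Atp5h and Atp5e further on.

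The core subunits of complex I named here, which carry the electron path, had smaller differences, and neither passed. Averaged over surgery they were -0.37 for Ndufv1, which holds the NADH site, and -0.51 for Ndufs1 (edgeR adjusted p = 0.0878). The 4 genes of complex II gave -0.30 ± 0.18 for Sdha, -0.36 ± 0.18 for the iron-sulfur subunit Sdhb, and -0.31 ± 0.14 and -0.67 ± 0.20 for the membrane anchors Sdhc and Sdhd. Sdhd came nearest to the threshold (edgeR adjusted p = 0.0579). Sdha ran from 175 to 441 CPM with a median of 225 in sham-vehicle and from 216 to 516 with a median of 305 in CKD-vehicle. It stood at 321, 134, 251, 243 and 178 CPM in sham-Oxf and at 159 to 421 with a median of 266 in CKD-Oxf, so its groups overlapped almost entirely.

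In complex III, Uqcrc2, a core protein of the complex, was the gene that fell (-0.88 ± 0.24, edgeR adjusted p = 0.0444). Its sham-vehicle levels ran from 43.2 to 200.8 CPM with a median of 68.6, and its CKD-vehicle levels from 66.7 to 252 with a median of 127. In sham-Oxf it had 83.6, 35.3, 59.6, 58.9 and 45.9 CPM, and in CKD-Oxf 41.4 to 139 with a median of 71.0. Pdzd9 overlaps it on the other strand. The value of sham-Oxf replicate 1 was the highest of its group, and 10 of 12 Oxf libraries lay below the vehicle median of the same surgery. The catalytic subunits did not pass: Uqcrfs1, the Rieske iron-sulfur protein, had -0.35 ± 0.22, and Cyc1, cytochrome c1, had -0.31 ± 0.17. Uqcr11, the gene with the highest level per kilobase of merged exon, had the smallest difference of the complex (-0.15 ± 0.30).

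Complex IV, as grouped by gene name, had the lowest median in this fit and 4 genes that fell, and 3 of these belong to subunits with tissue forms. Ndufa4, which also fell, stays under complex I in these counts because of its name. Cox6a2, the form of heart and skeletal muscle, ran from 56.0 to 239.7 CPM with a median of 101 in sham-vehicle and from 98.2 to 322 with a median of 174 in CKD-vehicle. It stood at 81.9, 60.2, 117, 57.5 and 33.5 CPM in sham-Oxf and at 41.7 to 108 with a median of 84.4 in CKD-Oxf, where every library was below the CKD-vehicle median. Its fitted difference was -1.04 ± 0.24 (edgeR adjusted p = 0.0286). Itgad lies on the other strand at Cox6a2, and reads of overlapping genes cannot be told apart where strand was not used. Cox6a1, its general counterpart, fell too (-0.63 ± 0.14, edgeR adjusted p = 0.0275). Its levels were 10.7 to 23.6 CPM with a median of 15.2 in sham-vehicle and 13.9 to 25.0 with a median of 15.98 in CKD-vehicle. They were 9.96, 10.4, 15.1, 7.998 and 7.11 CPM in sham-Oxf and 8.18 to 16.1 with a median of 10.9 in CKD-Oxf. All 5 sham-Oxf and 6 of 7 CKD-Oxf libraries lay below the vehicle median of the same surgery. Cox7b, a small subunit encoded on the X chromosome, fell by 1.11 ± 0.27 (edgeR adjusted p = 0.0351), 2.15-fold. In CKD-Oxf it ran from 31.2 to 174 CPM with a median of 59.7, and the 174 of replicate 4 lay within the CKD-vehicle range of 62.0 to 246 (median 160.3). In sham-Oxf it had 78.9, 24.9, 40.5, 46.3 and 35.3 CPM, against 41.8 to 196 (median 76.0) in sham-vehicle. Cox8b, the muscle form of subunit 8, fell (-0.88 ± 0.25, edgeR adjusted p = 0.0495). Cox4i1, the general form of the largest nuclear subunit, had -0.32 ± 0.24 and did not pass.

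**Figure D3:**
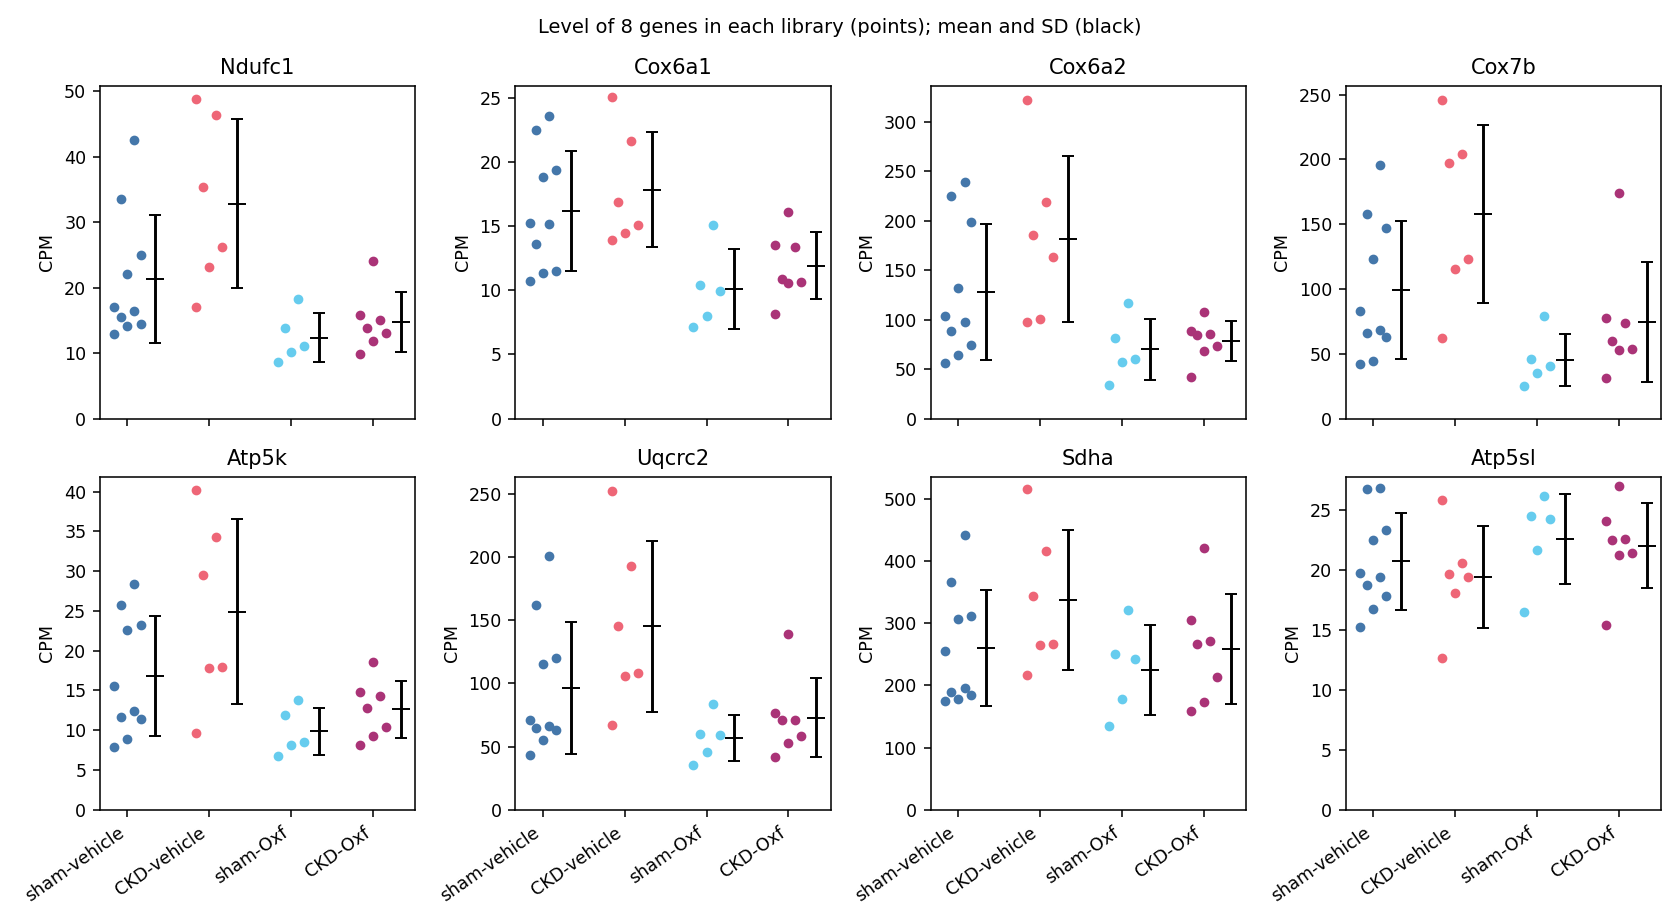
Level in CPM (vertical axes, from 0) of 8 genes in each library, 1 point per library, with the group mean and SD in black. Ndufc1, Cox6a1, Cox6a2, Cox7b, Atp5k and Uqcrc2 have their lowest means in sham-Oxf and their highest in CKD-vehicle, Sdha overlaps widely between groups, and Atp5sl has its highest mean in sham-Oxf (22.6 CPM) and its lowest in CKD-vehicle (19.4).

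Of the ATP synthase genes, Atp5k, a small membrane subunit, Atp5h, of the peripheral stalk, and Atp5e, the ε subunit of the central stalk, fell. Atp5k was the gene with all 12 Oxf libraries below the vehicle median of the same surgery (-0.87 ± 0.22, edgeR adjusted p = 0.0351). It had 11.95, 6.82, 13.8, 8.51 and 8.15 CPM in sham-Oxf against 7.94 to 28.3 (median 14.0) in sham-vehicle, and 8.17 to 18.6 (median 12.8) in CKD-Oxf against 9.62 to 40.1 (median 23.7) in CKD-vehicle. Atp5h (-0.83 ± 0.22, adjusted p = 0.0427) and Atp5e (-0.94 ± 0.26, adjusted p = 0.048) were close to the threshold, and without sham-Oxf replicate 1 Atp5e no longer passed (edgeR adjusted p = 0.0529). The abundant catalytic subunits had smaller differences that did not pass, -0.38 ± 0.21 for Atp5a1 and -0.31 ± 0.22 for Atp5b. The 3 genes of the c ring, which encode the same mature protein, gave -0.48 for Atp5g1, -0.38 for Atp5g2 and -0.57 for Atp5g3, none past the threshold. Atp5sl, also known as Dmac2 and an assembly-related gene rather than a subunit, went the other way at 0.16 ± 0.11 (not past the threshold), as did Cox6b2 at 0.05 ± 0.33.

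The genes that fell were counted by length of merged exon, which is not the length of the expressed transcript. Of the 21 members with under 1000 bp of merged exon, 5 fell and the median difference was -0.62. Of the 35 with 1000 to 2000 bp, 7 fell and the median was -0.54, and of the 35 over 2000 bp, 1 fell and the median was -0.40. Across the 91 genes Spearman's rho between the difference and exon length was 0.19, a description over genes that share the same libraries.

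Proximal promoter sequence was examined because the genes moved together across libraries. RefSeq (build GRCm38.p6) gave a window for 75 of the 91 genes, 3 of them under another symbol, and the 250 bases upstream of the annotated start were searched on both strands. Members without a window included Ndufa2, Ndufa4l2, Ndufaf6, Ndufb9, Ndufs1, Sdhc, Cyc1, Uqcrb, Uqcrc2, Uqcrq, Cox4i1, Cox4i2, Cox6a2, Cox6c and Atp5a1. The stretches shown belong to genes on which the results turn, 3 that fell with Oxf (Ndufc1, Cox6a1, Atp5e), the gene with the steepest relation to 7SL RNA described further on (Cox7a1), and the member that went the other way (Atp5sl, listed as Dmac2). They lie at chr3:51408989-51409205 on the minus strand (Ndufc1), chr5:115348982-115349129 on the minus strand (Cox6a1), chr2:174464106-174464351 on the minus strand (Atp5e), chr7:30183921-30184143 on the plus strand (Cox7a1) and chr7:25619164-25619413 on the plus strand (Atp5sl). All are upstream of the annotated first exon, trimmed to bases outside any annotated exon and written from the 5′ to the 3′ end in the direction of the gene. Capitals mark every match to a searched motif on either strand.
Ndufc1: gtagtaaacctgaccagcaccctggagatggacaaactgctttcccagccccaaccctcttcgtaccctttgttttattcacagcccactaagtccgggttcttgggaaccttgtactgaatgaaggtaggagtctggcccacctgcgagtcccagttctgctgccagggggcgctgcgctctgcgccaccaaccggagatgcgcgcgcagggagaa
Cox6a1: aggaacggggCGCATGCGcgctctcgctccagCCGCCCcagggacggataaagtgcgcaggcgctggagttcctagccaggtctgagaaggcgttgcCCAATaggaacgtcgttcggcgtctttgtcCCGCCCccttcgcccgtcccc
Atp5e: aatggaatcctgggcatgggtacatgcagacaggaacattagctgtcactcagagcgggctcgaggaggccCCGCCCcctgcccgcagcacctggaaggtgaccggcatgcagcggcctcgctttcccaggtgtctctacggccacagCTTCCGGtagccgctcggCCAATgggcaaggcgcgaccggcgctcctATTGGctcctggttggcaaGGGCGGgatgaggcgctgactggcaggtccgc
Cox7a1: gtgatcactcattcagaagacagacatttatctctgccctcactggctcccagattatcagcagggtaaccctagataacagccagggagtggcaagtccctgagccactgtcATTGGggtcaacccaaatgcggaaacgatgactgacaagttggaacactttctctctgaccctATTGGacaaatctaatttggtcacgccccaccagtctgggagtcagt
Atp5sl: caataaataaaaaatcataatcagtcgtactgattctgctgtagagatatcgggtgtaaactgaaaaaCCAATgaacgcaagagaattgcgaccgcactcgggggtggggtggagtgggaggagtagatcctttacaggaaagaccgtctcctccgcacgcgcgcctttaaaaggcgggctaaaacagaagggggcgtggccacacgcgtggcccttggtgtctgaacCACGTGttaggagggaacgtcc

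In these stretches Cox6a1 held the NRF1 core (GCATGCG, read on both strands of a palindrome-like run, so that the matches overlap), the SP1 box (GGGCGG) and the NF-Y box (CCAAT). Atp5e held the ETS motif bound by GABP (CCGGAAG), SP1 boxes and NF-Y boxes. Cox6a1 also had a match to this ETS motif, at positions -16 to -10 of its window, in the part trimmed from the stretch shown. Cox7a1 held NF-Y boxes, Atp5sl held an NF-Y box and an E box (CACGTG), and Ndufc1 held none of the searched letters. NRF1 and GABP are known activators of respiratory chain genes. Over the 75 windows the NRF1 core was present in 9 (12%), against 4.92% of the 12388 tested genes with a window and 3.07% of all 27025 genes with a window. The GABP motif was present in 12 (16%, against 12.2% and 7.05%), and the site of the estrogen-related receptors (AAGGTCA) in 5 (6.67%, against 2.91% and 4.05%). The SP1 box was present in 29 (38.7%, against 54.8% and 32.9%), the NF-Y box in 33 (44.0%, against 36.2% and 34.5%), the E box in 7 (9.33%, against 7.94% and 6.05%) and the TATA box (TATAAA) in 5 (6.67%, against 7.53% and 13.0%). The YY1 motif (AAGATGG) was in 0 of these 75 windows, against 4.10% and 4.53%. A match is a run of letters and not a measured binding site, and these shares were not tested.

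The level of these genes followed the 7SL share of the library within groups. In a fit with the 4 group means and 1 common slope on the log2 7SL share, 82 of 91 members passed (90.1%, against 37.7% of all genes), 81 with a positive slope (89% against 16.7% of all genes) and 1 with a negative slope. The median slope was 0.37 log2 units per doubling of the share, against -0.05 for all genes. By complex 41 of 45, 4 of 4, 9 of 9, 12 of 16 and 16 of 17 genes passed, with medians of 0.34, 0.29, 0.43, 0.32 and 0.39. Without sham-Oxf replicate 1, 84 members passed. The steepest slopes were those of Cox7a1, the muscle form of a complex IV subunit, at 0.74 ± 0.08 (SE, edgeR adjusted p = 2.82e-07), Uqcr11 at 0.66 ± 0.08 and Ndufb2, an accessory subunit of complex I, at 0.65 ± 0.06 (edgeR adjusted p = 3.16e-08). Cox7a1 ran from 21.3 to 156 CPM in sham-vehicle and from 11.8 in sham-Oxf replicate 2, where 7SL RNA was 1.83% of the counts, to 84.4 in sham-Oxf replicate 1, where it was 10.3%. The negative slope was that of Atp5sl (-0.13 ± 0.05, edgeR adjusted p = 0.0323), which passed in 25 of the 28 fits that left out 1 library, and not without sham-Oxf replicate 1 (edgeR adjusted p = 0.0681), sham-vehicle replicate 6 (0.0828) or CKD-vehicle replicate 5 (0.128). Its levels were nearly flat, 15.2 to 26.8 CPM in sham-vehicle (median 19.6), 12.6 to 25.8 in CKD-vehicle (median 19.5) and 15.4 to 27.0 in CKD-Oxf (median 22.5), with 16.5, 24.2, 21.6, 26.1 and 24.5 in sham-Oxf. Of the 13 genes that fell with Oxf, Cox6a1 had a slope that did not pass (0.13 ± 0.06, edgeR adjusted p = 0.109). The 8 libraries with the highest mean level of the set, 4 of sham-vehicle, 3 of CKD-vehicle and 1 of CKD-Oxf, had 7SL shares of 10.8% to 21.0%. Other lists had such slopes too: all 5 blood and all 4 liver markers and 6 of 9 cardiomyocyte markers passed with a positive slope, so the relation is not shown to be particular to these genes.

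**Figure D4:**
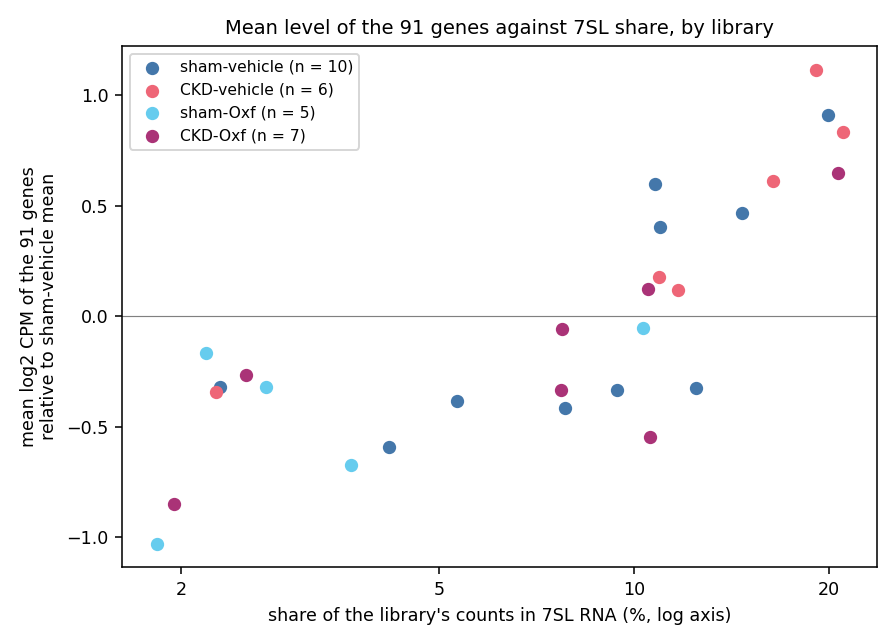
Mean log2 CPM of the 91 genes relative to the sham-vehicle mean (vertical axis) against the share of 7SL RNA in the counts of the library (horizontal log axis, percent), 1 point per library. Libraries under 5% lie below 0 and those over 14% lie above 0 in all groups present there, while libraries between 7% and 13% lie on both sides.

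On the clock score, with the groups in the model, 0 members had an adjusted p under 0.05 in edgeR (0.148% of all genes), and 11 had a lower level at a higher score at an unadjusted p under 0.05 (12.1% against 3.98% of all genes). Slopes were negative for 88 of 91 with a median of -0.20 (all genes: 0.03). Atp5sl had the smallest p and the opposite sign (0.14 ± 0.05, p = 0.00951, edgeR adjusted p = 0.495).

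Pairs of members were correlated within groups. After the group means had been subtracted, the median Pearson r over 4095 pairs of genes was 0.89 and 94.7% of the pairs were positive, as a description over 28 libraries whose 7SL share and composition all pairs have in common. Pairs within complexes II (0.94) and III (0.95) were closest, followed by V (0.90), I (0.89) and IV (0.77). The genes least like the rest, by their median r with the other members, were Atp5sl (-0.46), Cox6b2 (-0.37), Ndufaf5 (0.00), Ndufaf2 (0.16), Cox4i2, an oxygen-responsive form of subunit 4 (0.35), and Ndufa4l2, a paralog of Ndufa4 (0.56). Most of these are assembly factors or forms with low levels in the heart: Cox6b2, Ndufaf2 and Cox4i2 had sham-vehicle means of 0.344, 1.94 and 3.74 CPM. Ndufaf5, Ndufaf2 and Cox6b2 were listed at 0 counts in sham-Oxf replicate 1. The correlations were not computed without that library, so their low r may rest on it.

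Muscle and general forms of complex IV subunits were compared as log2 ratios of CPM in the same library. A ratio cancels what acts on both genes alike, but not what acts on them unequally. The ratios were not adjusted for the 7SL share, whose mean was 13.6% in CKD-vehicle and 8.81% in CKD-Oxf. Its part in the ratios was not tested. Over 5 pairs and 4 comparisons, 0 of 20 ratios passed after adjustment (exact two-sided permutation tests over libraries, Benjamini-Hochberg). The smallest p was that of Cox6a2 over Cox6a1, which was 2.70 ± 0.39 in CKD-Oxf (SD, n = 7) and 3.25 ± 0.43 in CKD-vehicle (n = 6), a difference of -0.56 with all 7 CKD-Oxf libraries below the CKD-vehicle median (exact permutation p = 0.0332, adjusted p = 0.354). In the same comparison Cox8b over Cox8a differed by -0.63 (exact permutation p = 0.0495, adjusted p = 0.354) and Cox7a1 over Cox7a2 by -0.45 (exact permutation p = 0.053). In sham-vehicle the muscle form exceeded the general form by 2.85 ± 0.51 on the log2 scale for Cox6a2, 0.78 ± 0.40 for Cox7a1 and 1.04 ± 0.60 for Cox8b (n = 10). Cox4i2 stood 5.55 below Cox4i1 (-5.55 ± 0.51), and Cox6b2 stood at -7.48 ± 0.97 against Cox6b1. CKD-vehicle had a Cox4i2 over Cox4i1 ratio of -6.00 ± 0.28, a difference of -0.44 from sham-vehicle (exact permutation p = 0.0731, adjusted p = 0.365). These ratios compare counts and not counts per length.

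**Figure D5:**
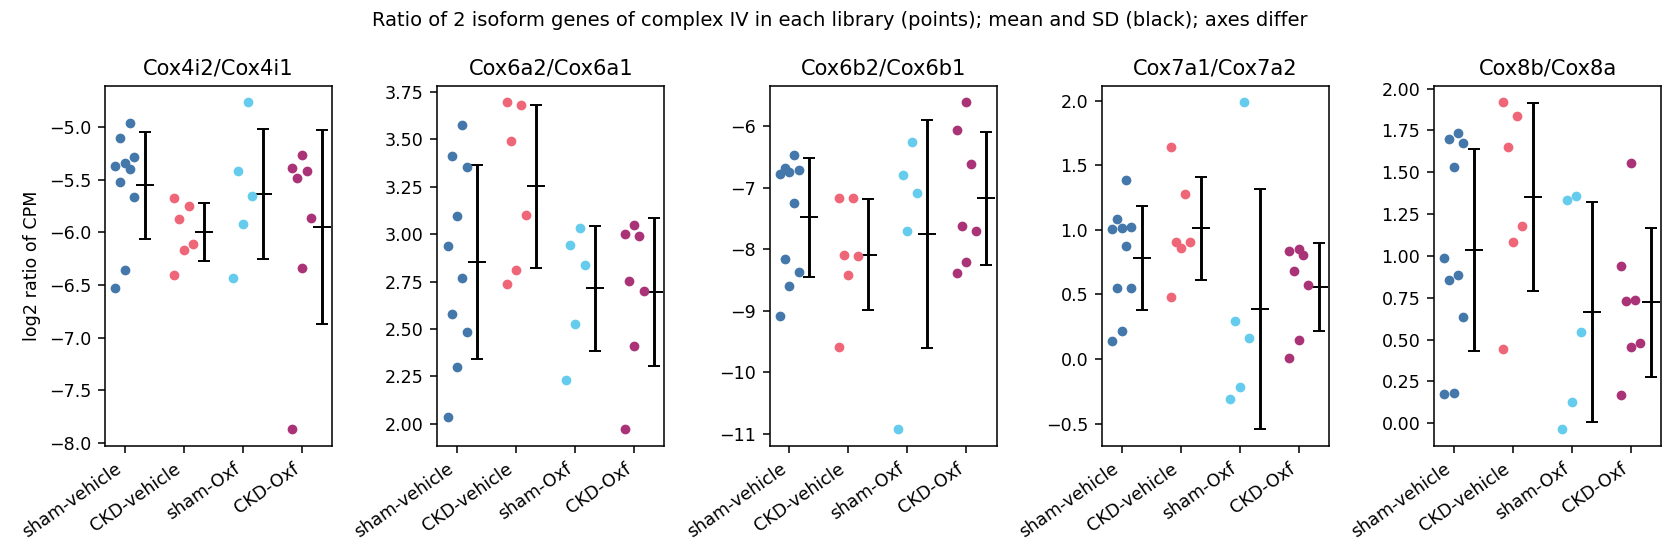
Log2 ratio of the CPM of 2 isoform genes of complex IV in each library (vertical axes, which differ between panels), 1 point per library, with the group mean and SD in black. Cox6a2 over Cox6a1 has its highest mean in CKD-vehicle (3.25), and the CKD-Oxf libraries reach up to 3.05.

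The subunits encoded in mitochondrial DNA, partners of the nuclear subunits in the same complexes, had a negative median in the gavage comparison and a median near 0 in the surgery comparison. With Oxf averaged over surgery the median of the 13 was -0.37 and 11 were negative, and mt-Nd6 fell (-0.95 ± 0.26, edgeR adjusted p = 0.0472), the only subunit encoded on the light strand. mt-Atp8 had -1.001 ± 0.29 (adjusted p = 0.0513), while mt-Co1 and mt-Co2 were at 0.09 and 0.19. For CKD-vehicle against sham-vehicle their median was -0.03, beside 0.42 for the nuclear genes, and the difference between these medians was not tested. Slopes on 7SL RNA passed for 3 of 13, all positive, where 16.7% of all genes passed with a positive slope, and their median was 0.17.

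Known regulators of the pathway gave no call in the gavage comparison. Of 16 transcription factors and coactivators, 0 were called with Oxf averaged over surgery, with 2 higher and 3 lower at an unadjusted p under 0.05, where 11.5% of all genes were higher and 11.5% lower, so these counts lie near the background. Their median was -0.03. Ppargc1a, the main coactivator of mitochondrial biogenesis, had -0.16 ± 0.12, Nrf1 0.18 ± 0.09, and Tfam, which packages mitochondrial DNA, -0.40 ± 0.17 (unadjusted p = 0.0269). On the 7SL share Gabpa (0.18), Esrra (0.19) and Esrrb (0.14) had positive slopes that passed (16.7% of all genes), and Ppargc1b (-0.22) and Pprc1 (-0.23) negative ones (21% of all genes). For CKD-vehicle against sham-vehicle 0 of the 16 regulators were called, 12 were positive and the median was 0.16. In that comparison 4 were higher and 0 lower at an unadjusted p under 0.05, against 2.09% and 2.37% of all genes.

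Assembly factors outside the Nduf names and the mobile carriers were also counted. Of 36 tested assembly factors, 1 fell with Oxf averaged over surgery, near the background of 1.54% of all genes, and 12 were lower at an unadjusted p under 0.05 (11.5% of all genes), with a median of -0.19. A positive 7SL slope passed for 22 of them, against 16.7% of all genes. Of 20 carriers and partners, 0 were called, 10 were lower and 1 was higher at an unadjusted p under 0.05, with a median of -0.31. Cycs, cytochrome c, had -0.62 ± 0.25 and Slc25a5, an ADP and ATP carrier, -0.56 ± 0.18 (edgeR adjusted p = 0.0665), while Coq10b had 0.41 ± 0.15. On the 7SL share 19 of the 20 passed with a positive slope.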

How the data were processed

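Gene expression in the ventricles of 28 mice was measured by RNA sequencing of total RNA. The values are whole-number counts per gene that the authors deposited as 1 table of 45513 rows and 28 columns, with 0 columns left without a sample. Reads were handled with FastQC 0.11.7, MultiQC 1.9, STAR 2.6.1d, Subread and featureCounts 1.6.3 on the mouse build mm10, per the submitters' processing notes. The annotation, the use of strand and the treatment of reads with several matches are not given in the sources used here, so genes with near-identical copies (many subunits have processed pseudogenes) or overlapping genes are less certain. By GENCODE M21 (GRCm38), matched by identifier, 12 of the 91 members overlap another gene on the same strand and 32 on the other.

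Tests were run with edgeR 4.0.16 (R 4.3.3) after TMM scaling (robust quasi-likelihood fit of 4 group means on all 28 libraries, filterByExpr with a minimum count of 10, 24273 genes tested, Benjamini-Hochberg threshold 0.05). The standard error is the log2 difference divided by the square root of F. The 7 contrasts were the 4 pairwise ones, gavage and surgery each averaged over the other, and their interaction. Slopes on the clock score and on the log2 7SL share were fitted with the groups in the model. CPM are counts scaled to the effective library size, with a prior count of 2 on the log2 scale. The fit was tested on simulated counts with known changes. Apart from those changes the counts were drawn gene by gene, without the shared variation between libraries found among the members. The simulation therefore does not show how the fit behaves under such variation. Isoform ratios were tested with exact permutations written in Python 3.11.15 with numpy 2.4.6, and their p-values were adjusted with SciPy 1.17.1. No 2 libraries held identical values. Replicates are separate mice, numbered within groups in record order.

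Named genes were, per contrast, all members past the threshold where 6 or fewer passed, otherwise the 3 largest rises and falls, or the smallest p where none passed, together with complex IV isoforms, complex II, the c ring, core subunits and the highest member per complex. The values of 1 named member are not reported here, and it remains in the counts and medians. The members, lists and rule were chosen with earlier results of these data known. The alternatives were DESeq2 1.42.0, limma 3.58.1 voom, other scalings and filters, the compared groups only, both covariates, and each library left out.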

Additional observations from a re-analysis of the deposited data

Results flagged for a closer look

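In groups of 4 to 10 libraries, the most extreme value was compared with its nearest neighbour (gap divided by the range of the group, with Dixon's 95% limits). The values compared included, but were not limited to, those of the named genes and the isoform ratios. The limits marked 8 of 200 comparisons, where chance alone would mark about 10.0.

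Of these, 3 concerned sham-Oxf replicate 1, the library with the lowest depth. Its Cox7a1 over Cox7a2 ratio was the highest of its group (log2 ratio 1.99, gap 0.739 of the range), and its Cox6b2 (gap 0.771) and Ndufaf2 (gap 0.855) levels were the lowest, both listed at 0 counts. Sham-Oxf replicate 2 had the lowest Cox7a2 (3.78 log2 CPM, gap 0.79) and the lowest Ndufaf4 (3.58 log2 CPM, gap 0.757), and the lowest mean over the 91 genes of all libraries.

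CKD-Oxf replicate 4 had the lowest Cox4i2 over Cox4i1 ratio (log2 ratio -7.87, gap 0.588) and the lowest Atp5sl (3.95 log2 CPM, gap 0.57). This library also had the highest mean level of the set in its group (0.65), and its removal moved the number of genes called for Oxf averaged over surgery from 13 to 56. CKD-vehicle replicate 6 had the lowest Cox6b2 of its group (gap 0.815), a gene with under 10 counts in 9 libraries.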

How the results depend on the processing

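For Oxf averaged over surgery, the 13 calls became 39 with DESeq2, 67 with limma voom, 19 with DESeq2 size factors, 18 with upper quartile scaling, 2 with no filter on low counts (43981 genes tested), 32 of 88 members with at least 10 counts in every library, and 0 with the clock score or the log2 7SL share as covariate. Leaving out each library gave 1 to 56 calls. For CKD-Oxf against CKD-vehicle, 0 calls became 3 with DESeq2 and 59 with voom, and 0 to 25 with libraries left out. The other 5 contrasts and the clock slope had 0 calls in every fit run. The 7SL slope had 77 to 86 calls. The median of all members for Oxf averaged was negative in every fit, from -0.60 to -0.09. The -0.09 came with the clock score as covariate, where the median of all tested genes was -0.07, so there the members lay near all genes.

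With the clock score as covariate the CKD-Oxf against CKD-vehicle medians were -0.054 (all members), -0.054 (complex I), 0.055 (III) and -0.12 (IV), and for Oxf averaged the medians of complexes II (0.03) and III (0.02) changed sign. Under it these named genes, none called, changed sign for Oxf averaged: Atp5a1 0.13, Atp5b 0.21, Atp5g1 0.0032, Atp5sl -0.18, Cox4i1 0.19, Cox6b1 0.066, Cox6b2 -0.22, Cyc1 0.07, Ndufv1 0.11, Sdha 0.18, Sdhc 0.072, Uqcr11 0.53 and Uqcrfs1 0.20. With the log2 7SL share as covariate the medians of sham-Oxf against sham-vehicle (0.04) and CKD-Oxf against sham-Oxf (-0.14) changed sign, and so did these genes: Atp5b 0.062, Cox4i1 0.079, Cox6b2 -0.23, Cyc1 0.017, Ndufv1 0.15, Uqcr11 0.49 and Uqcrfs1 0.048. The cause was not tested.

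Libraries left out changed the sign of uncalled values only. Cox6b2 (Oxf averaged) ran from -0.061 to 0.19. The Cox4i2/Cox4i1 ratio ran from -0.065 to 0.37 for CKD-Oxf against CKD-vehicle, -0.51 to 0.011 for CKD-Oxf against sham-Oxf and -0.30 to 0.11 for sham-Oxf against sham-vehicle. Cox6a2/Cox6a1 ran from -0.14 to 0.10 and Cox8b/Cox8a from -0.12 to 0.23 for CKD-Oxf against sham-Oxf. Cox6b2/Cox6b1 ran from -0.21 to 0.96 for CKD-Oxf against sham-Oxf and -0.65 to 0.52 for sham-Oxf against sham-vehicle. No paired analysis was possible because the labels give the groups no shared replicate numbers. Low counts limit Cox6b2 (under 10 counts in 9 libraries) and Ndufaf2 (sham-vehicle mean 1.94 CPM). Ndufaf2 and Ndufaf5 were under 10 counts only in sham-Oxf replicate 1, where both had 0.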
